A study of Mus musculus with 11 samples.

Results

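*Apobec3* (ENSMUSG00000009585) is the gene examined here, 1 of the 19058 genes with estimated counts in whole lacrimal glands of male NOD mice. It was selected on its estimated counts, which ran above WT in *Tlr7* KO glands, where most immune genes ran below WT. Its WT and *Tlr7* KO levels are therefore given as a description, without a test. RNA sequencing of glands from 3 WT mice, 5 *Tlr7* KO mice and 3 *Ifnar1* KO mice was used, with 1 library per mouse. All 3 groups share the NOD background, the male sex and the tissue. The *Tlr7* KO line was made by CRISPR/Cas9 editing of NOD embryos and carries a deletion of 2 base pairs. The *Ifnar1* KO line is a germline knockout of a subunit of the type I IFN receptor on the same background. The study's methods state that a further *Ifnar1* KO library, which grouped with the WT libraries, was left out of that group. Its inflammation was given as at the level of WT. The *Ifnar1* KO values here are therefore of mice retained after a WT-like one was removed. WT and *Tlr7* KO mice were 20 to 22 weeks old when glands were taken, and the age of the *Ifnar1* KO mice is not given in the sources used here. A difference in age could therefore not be told apart from the *Ifnar1* genotype.

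APOBEC3 proteins are cytidine deaminases that restrict retroviruses. They are packaged into virions and deaminate cytosines in newly made viral DNA, and they also block reverse transcription without deamination. Mice carry a single *Apobec3* gene, while primates carry a cluster of related genes. *Apobec3* is expressed in lymphoid cells, B cells among them, and type I IFN can raise its expression. TLR7 is an endosomal sensor of single-stranded RNA that drives type I IFN production and B cell activation. The lacrimal glands of male NOD mice become infiltrated by B and T cells.

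*Apobec3* lies on the plus strand at chr15:79891659-79915906 of GRCm38. The annotation (GENCODE release M21) lists 20 transcripts of the gene, of which 11 are protein coding, 5 are retained-intron transcripts, 3 are targets of nonsense-mediated decay and 1 is a processed transcript. Together their exons cover 9454 bases. Of these, 676 bases (7.15%) also lie in an exon of D730005E14Rik on the same strand and 100 bases (1.06%) in an exon of *Cbx7* on the opposite strand, so part of the reads there cannot be placed in 1 gene with certainty. D730005E14Rik was not analysed here.

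The promoter is shown because IFN-responsive genes often carry an IFN-stimulated response element, and because the comparison with *Ifnar1* KO mice bears on type I IFN signaling. The bases upstream of the first of the gene's RefSeq start sites are given 5′ to 3′ (RefSeq, GRCm38.p6, plus strand, chr15:79892158-79892402). Capitals mark the only match to the letters searched on both strands, GAAA, any 2 bases and GAAA again, which read TTTC, any 2 bases and TTTC on the other strand.

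*Apobec3* promoter: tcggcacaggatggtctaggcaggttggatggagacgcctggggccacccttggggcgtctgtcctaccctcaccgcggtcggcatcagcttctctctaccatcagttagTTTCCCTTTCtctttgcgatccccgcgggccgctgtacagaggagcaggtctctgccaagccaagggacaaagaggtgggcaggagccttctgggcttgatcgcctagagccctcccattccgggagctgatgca

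The match begins 140 bases before the start site at 79892408. A further RefSeq start site of *Apobec3*, at 79895023, had no match in its window. Among all RefSeq windows of 300 bases (250 before to 50 after a start site), 1131 of 32851 held a match (3.44%), and 1079 of 27025 genes (3.99%) held one in any window. Of the interferon-stimulated genes listed below, 14 of the 27 with a window held one, among them *Isg15*, *Ifit1*, *Stat2* and *Cxcl10*. Of the retrovirus restriction genes, 6 of 21 did (*Bst2*, *Trim30a*, *Ifitm2*, *Ifitm3*, *Rsad2* and *Slfn5*). Among the other listed genes with a window, 0 of 3 APOBEC deaminase genes and 0 of 16 near neighbours held one. Of the genes most like *Apobec3* in level, 0 of 5 did. A match describes these letters only and does not show that a factor binds there.

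The files give *Apobec3* by 2 ways of counting the same libraries. The first table holds estimated counts, made by the authors with salmon, which shares a read among the transcripts it matches. The second table holds whole-number counts per gene from the same mice, for which the counting tool is not given in the sources used here. Each library had 20512315 to 28814250 counts in the first table and 12233586 to 16621073 in the second. Levels are given as CPM, library-scaled counts with TMM factors, with each table normalized on its own. WT 2 stood apart from the other WT mice: its summed B cell marker level was 117 CPM, against 409 CPM in WT 1 and 358 CPM in WT 3. *Tlr7* itself had 36 to 99 estimated counts in WT, 12 to 25 in *Tlr7* KO and 6 to 22 in *Ifnar1* KO mice, so its transcript was still counted in the *Tlr7* KO glands, as can be with a small deletion. *Ifnar1* had 249 to 548 estimated counts in WT, 230 to 245 in *Ifnar1* KO and 158 to 260 in *Tlr7* KO mice. Its counts thus did not set the *Ifnar1* KO mice apart from the *Tlr7* KO mice. Whether these counts fall outside the edited part was not examined. The 10 gland epithelial markers had counts in every group and summed to 1030 to 1248 CPM in WT, 1411 to 1498 CPM in *Tlr7* KO and 1436 to 1648 CPM in *Ifnar1* KO mice, so that WT lay below both KO lines. Of the 10, 3 were called higher and 3 lower in *Tlr7* KO than in WT (edgeR), and the part of this shift in the immune values below was not tested.

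*Apobec3* was highest in *Tlr7* KO glands by estimated counts and highest in WT glands by the second table. In estimated counts, WT mice 1 to 3 had 722, 206 and 1032 counts of *Apobec3*. *Ifnar1* KO mice 1 to 3 had 250, 382 and 191. *Tlr7* KO mice 1 to 5 had 1561, 1883, 2022, 1302 and 847. WT 2 lay with the *Ifnar1* KO mice, and the other WT mice lay above them.

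Scaled to library size, the WT mice were at 24.7, 8.69 and 28.2 CPM (20.5 ± 10.4 CPM, SD, n = 3). The *Ifnar1* KO mice were at 8.51, 14.3 and 8.0 CPM (10.3 ± 3.49 CPM, SD, n = 3). The *Tlr7* KO mice were at 59.7, 81.9, 76.8, 53.6 and 44.7 CPM (63.4 ± 15.6 CPM, SD, n = 5). All *Tlr7* KO mice were above all WT mice, as in 16.6% of genes tested, while WT and *Ifnar1* KO overlapped. This separation rested on the TMM factors: scaled by library size only, *Tlr7* KO 5 (30.7 CPM) lay below WT 1 (35.2 CPM) and WT 3 (41.8 CPM), and the other *Tlr7* KO mice lay above all WT mice. The order of levels was thus *Ifnar1* KO, WT and *Tlr7* KO, and the first pair in it did not separate.

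In the second table, the WT mice had 71, 25 and 122 counts of *Apobec3*. The *Ifnar1* KO mice had 8, 20 and 9. The *Tlr7* KO mice had 21, 27, 16, 20 and 19. Here WT 1 and WT 3 stood above all other mice, and the *Tlr7* KO counts lay near those of WT 2 and *Ifnar1* KO 2, with *Tlr7* KO 2 above both.

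The corresponding second-table levels were 4.35, 1.81 and 5.84 CPM in WT (4.0 ± 2.04 CPM, SD, n = 3). They were 0.459, 1.28 and 0.646 CPM in *Ifnar1* KO mice (0.797 ± 0.432 CPM, SD, n = 3). They were 1.36, 2.02, 1.03, 1.43 and 1.77 CPM in *Tlr7* KO mice (1.52 ± 0.382 CPM, SD, n = 5). *Ifnar1* KO lay below WT without overlap, as did 20.7% of genes tested, while *Tlr7* KO overlapped with each of the others. The higher level of *Apobec3* in *Tlr7* KO glands was thus seen in the estimated counts and not in the second table.

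**Figure D1:**
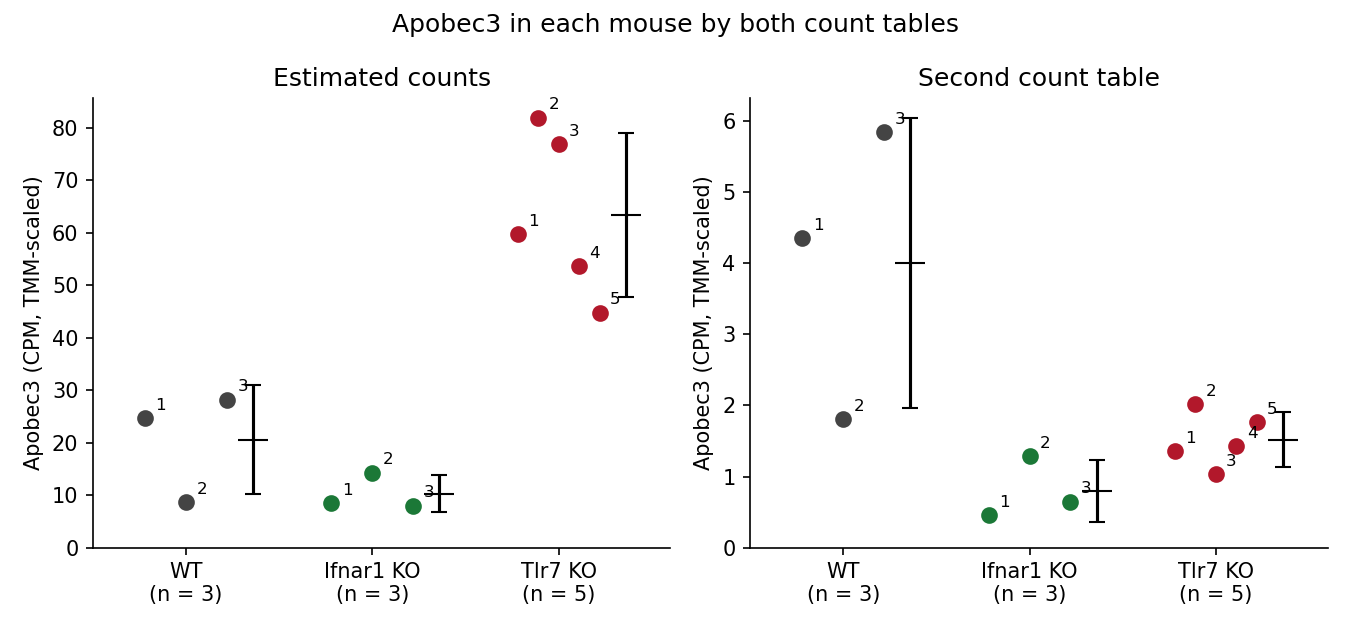
Level of *Apobec3* in CPM in each mouse (points, numbered by replicate) by estimated counts (left) and by the second table (right), with the group mean and SD (bars). The *Tlr7* KO mice lie between 44.7 and 81.9 CPM on the left, above all WT mice (not so for *Tlr7* KO 5 with library size only, at 30.7 against 41.8 CPM in WT 3), and between 1.03 and 2.02 CPM on the right, where WT reaches 5.84 CPM.

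Expressed as fold changes, *Apobec3* in *Tlr7* KO over WT had a log2 fold change of 1.62 (SE 0.39) by estimated counts and -1.42 (SE 0.34) by the second table. These are 3.07-fold higher and 2.68-fold lower. With scaling by library size only they were 1.02 (SE 0.55) and -1.91 (SE 0.42). Both come from fits of all genes with edgeR, and no p is given because this contrast chose the gene. With 0.05 as the limit of the adjusted p, 32.5% of 13937 genes with estimated counts were called in this comparison (15.3% higher and 17.1% lower in *Tlr7* KO, so that 47.2% of the calls were higher, against 2.65% with scaling by library size only), and 30.5% of the 13050 tested by the second table. With each mouse left out in turn, the value ran from 1.25 (without WT 2) to 1.91 (without WT 3) by estimated counts. By the second table it ran from -1.77 (without WT 2) to -1.04 (without WT 3). The sign in each table was thus kept without each mouse. By estimated counts this is a description, since that sign was part of how the gene was chosen.

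The comparison of *Ifnar1* KO with WT asks whether *Apobec3* differed when type I IFN signaling was lost. By estimated counts the log2 fold change was -1.03 (SE 0.45). By the second table it was -2.36 (SE 0.53), a 5.13-fold lower level. No p is given here either, since the WT mice are those on which the gene was chosen and its values in all 3 groups were known. Over all genes, edgeR called 19% by estimated counts and 18.3% by the second table. With each mouse left out in turn, the value was below 0 each time. It ran from -1.40 (without WT 2) to -0.74 (without WT 3) by estimated counts. By the second table it ran from -2.88 (without *Ifnar1* KO 2) to -1.97 (without WT 3). Immune cell markers were lower in the same comparison. B cell markers summed to 4.15 to 31.4 CPM in *Ifnar1* KO and 117 to 409 CPM in WT mice, and 15 of 15 were called lower. T cell markers summed to 2.22 to 20.4 CPM and 35.2 to 109 CPM, and 10 of 14 were called lower. The part of these cells in the level of *Apobec3* was not tested.

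Between the KO lines, *Apobec3* was higher in *Tlr7* KO than in *Ifnar1* KO glands in both tables. The log2 fold change was 2.63 (SE 0.29) by estimated counts, or 6.18-fold, and 0.94 (SE 0.38) by the second table, or 1.92-fold. It is given without a test, since the *Tlr7* KO mice are those on which the gene was chosen. In the estimated counts the 2 groups did not overlap, as was the case for 5.47% of genes in this direction. In the second table *Ifnar1* KO 2 (1.28 CPM) lay above *Tlr7* KO 3 (1.03 CPM).

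The ratio of the 2 counts of *Apobec3* differed between the groups. It was 10.2, 8.24 and 8.46 in the WT mice. It was 31.3, 19.1 and 21.2 in the *Ifnar1* KO mice and 74.3, 69.7, 126, 65.1 and 44.6 in the *Tlr7* KO mice. The 3 groups did not overlap, which was so for 0.178% of 12358 genes counted in every mouse of the second table, and for 0.0324% in the same order of groups. As the estimated counts in this ratio are those on which the gene was chosen, these shares and the rank given next are a description. The whole libraries differed far less, with a ratio of total counts of 1.64 to 1.84 over the 11 mice. Summed over mice, *Apobec3* had 10398 estimated counts and 358 second-table counts. This ratio of 29.0 ranked 31 from the top among 12760 genes tested in both tables, whose median was 1.41 with a 5th to 95th percentile of 1.30 to 2.23.

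**Figure D2:**
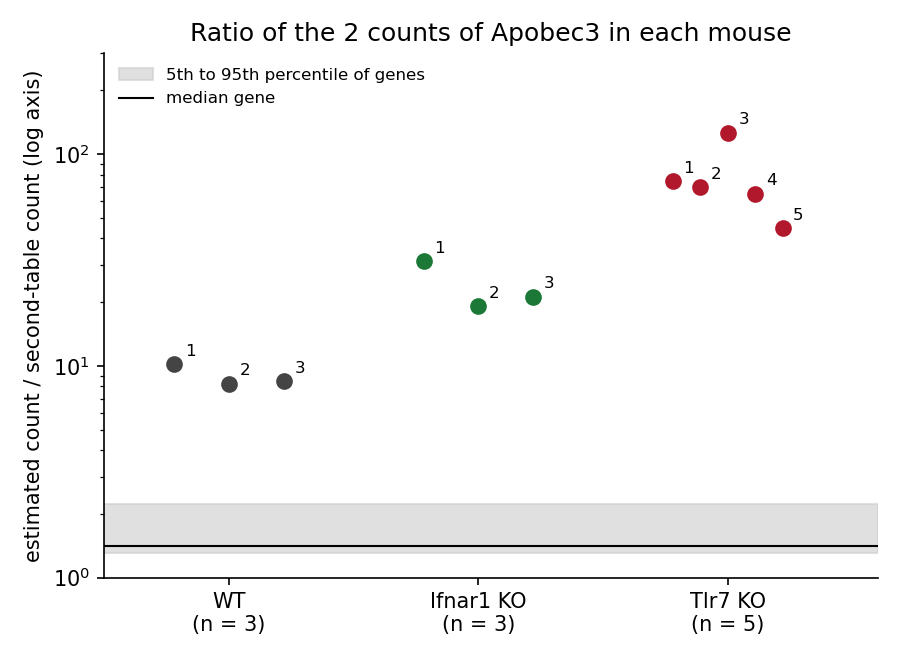
Estimated count of *Apobec3* divided by its second-table count in each mouse (points, numbered by replicate; log axis), with the median gene (line) and the 5th to 95th percentile of 12760 genes (band). The ratio is lowest in WT and highest in *Tlr7* KO mice, and every mouse lies above the band, which ends at 2.23.

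Most genes had nearly the same fold change in both tables. For *Tlr7* KO over WT, the difference between the log2 fold changes of the 2 tables was between -0.38 and 0.48 for the central 98% of 12760 genes. It was 3.04 for *Apobec3*, which ranked 5 from the top, a rank that the choice of the gene on its estimated counts in part fixes. For *Ifnar1* KO over WT the difference was 1.33 (rank 35), and for *Tlr7* KO over *Ifnar1* KO it was 1.69 (rank 11). Over the 11 mice, log2 CPM of *Apobec3* in the 2 tables had a Pearson r of 0.30 and a Spearman rho of 0.32, a description in which both values of a mouse come from the same library.

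**Figure D3:**
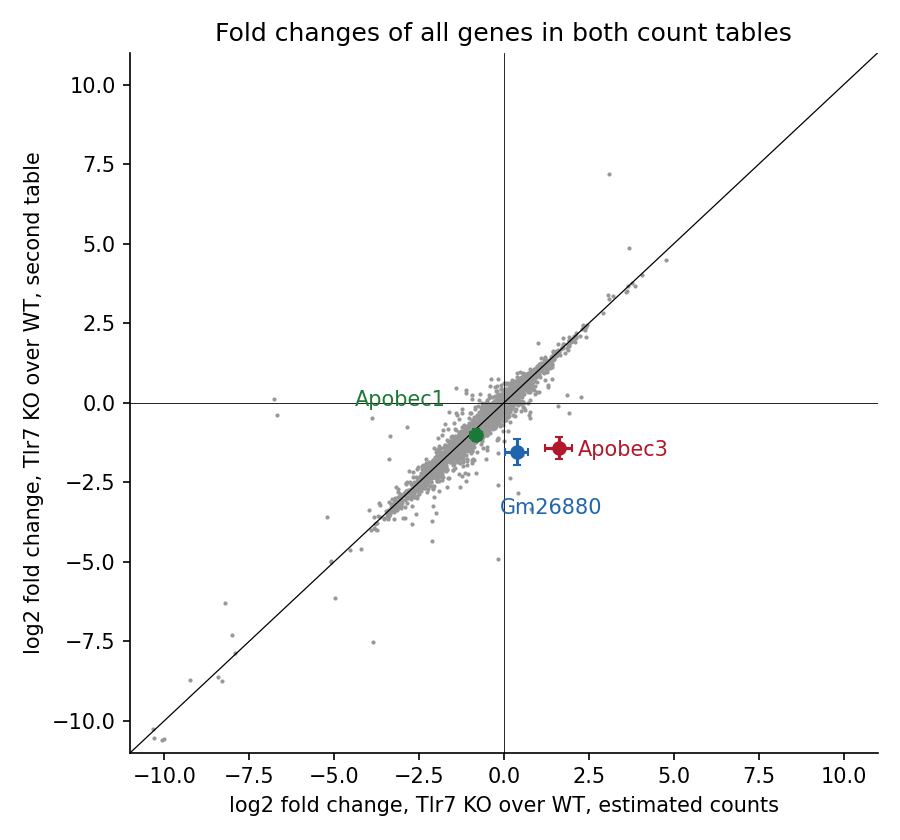
Log2 fold change of each of 12760 genes in *Tlr7* KO over WT by estimated counts (x axis) and by the second table (y axis), with the line of equal values and, for 3 genes, SE bars. *Apobec3* sits at 1.62 and -1.42, away from the line, and its relative *Apobec1* sits at -0.83 and -1.02, near it.

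The transcripts of *Apobec3* were searched for sequence held also by other genes, since reads from such sequence can be assigned to either gene. Words of 31 bases were compared with all GENCODE transcripts of distant genes. Of the 1663 words of Apobec3-208, a retained-intron transcript of 1693 bases, 20.4% were found in 35 distant genes. The retained-intron transcript Apobec3-219 shared 5.03% of its words, found in 4372 distant genes, and no other transcript of the gene shared more than 0.565%. The protein-coding transcripts thus had little sequence in common with distant genes.

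The shared words of Apobec3-208 lay mainly in a stretch of 500 bases, from base 305 to base 804 of the transcript (chr15:79895594-79896093, GRCm38). The stretch is in exon 2 of 2 (79895411 to 79896982), and 0 of its 500 bases are in an exon of a protein-coding *Apobec3* transcript. Within it, 10 distant genes shared at least 50 words each. The reference is of the C57BL/6 strain, in which an intron of *Apobec3* is known to carry a retroviral long terminal repeat that some strains lack. Whether the stretch is this repeat, and whether the NOD allele carries it, was not examined.

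**Figure D4:**
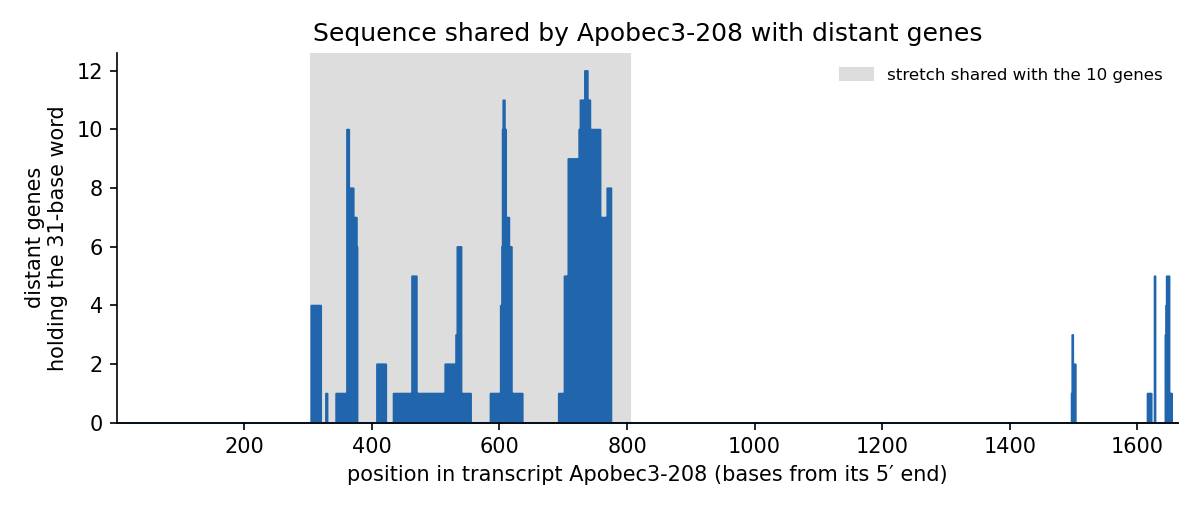
Number of distant genes that hold the 31-base word starting at each position of transcript Apobec3-208 (bars), with the stretch of 500 bases shaded. The words shared with most genes lie between bases 305 and 804, and a few others lie near the 3′ end.

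Of these 10 genes, 4 had values in the tables. *Gm26880* (ENSMUSG00000096979), a lincRNA gene at chr4:146509094-146511764 on the minus strand, shared 103 words with Apobec3-208 on the same strand. It had 37025 estimated counts and 125 second-table counts over the 11 mice, a ratio of 296. Its estimated counts were 4333, 1521 and 5981 in WT, 1811, 2434 and 1398 in *Ifnar1* KO, and 3941, 5002, 4993, 3574 and 2037 in *Tlr7* KO mice. Like *Apobec3*, it was lowest among WT mice in WT 2 and lowest among *Tlr7* KO mice in *Tlr7* KO 5. In CPM it was 64.2 to 163 in WT, 58.6 to 91.0 in *Ifnar1* KO and 108 to 218 in *Tlr7* KO mice, so that WT overlapped with both KO lines, which did not overlap with each other, as in 5.47% of genes tested. With library size only the KO lines overlapped, as *Tlr7* KO 5 (73.9 CPM) lay below *Ifnar1* KO 2 (90.9 CPM).

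*Gm26880* also differed in sign between the tables with TMM scaling, but not when its estimated counts were scaled by library size only (-0.21). With TMM its log2 fold change in *Tlr7* KO over WT was 0.37 (SE 0.33, adjusted p = 0.417, edgeR) by estimated counts and -1.54 (SE 0.41, adjusted p = 0.0178, edgeR) by the second table, where it had 3 to 33 counts per mouse. Across the 11 mice its log2 CPM had a Pearson r of 0.92 with *Apobec3* by estimated counts. After the mean of each group was removed the r was 0.99, with WT 2 furthest from its group mean in *Apobec3*. The others were *Cnbd2* (125 words, ratio 8.56, r = 0.06), *Cep85* (108 words, ratio 2.69, r = 0.29) and *Gm10524* (67 words on the opposite strand, ratio 1.13, r = -0.68). *Cep85* differed in sign between the tables in the other direction, with a log2 fold change in *Tlr7* KO over WT of -0.35 (adjusted p = 0.0878, edgeR) by estimated counts and 0.17 by the second table, and in *Ifnar1* KO over WT of -0.51 and 0.33. The 4 genes thus differed in how far they followed *Apobec3*. The part of this shared sequence in the levels of *Apobec3* was not tested.

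Most immune genes listed were lower or not called in *Tlr7* KO glands, and *Apobec3* by estimated counts lay above all of them. That immune genes ran lower in this comparison was part of how *Apobec3* was chosen, so their counts are a description. In whole glands, fewer cells of a type and less RNA per cell cannot be told apart. The median log2 fold change over all genes was -0.04. All 15 B cell markers tested were called lower in *Tlr7* KO than in WT (median log2 fold change -3.28, from -3.64 to -2.27), where 17.1% of all genes were called lower. Without WT 1 the number was 11. Of 14 T cell markers, 11 were lower (median -1.68), but 0 were called without WT 1 or without WT 3. Of 5 NK cell markers 4 were lower, and of 15 myeloid markers 6. NK cell calls fell to 1 without WT 1 and 0 without WT 3. Myeloid calls fell to 0 without WT 1, and to 1 without WT 3, *Tlr7* KO 1, *Tlr7* KO 3 or *Tlr7* KO 4. They were 10 with scaling by library size only (median -1.24, against -0.68). In that setting 4410 of 13937 genes were called, nearly all of them lower, and the median over all genes was -0.54. Without WT 1 2658 of 13114 genes were called in either direction, and without WT 3 2510 of 12903.

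Of 7 plasma cell markers 4 were lower in *Tlr7* KO and 1 was higher, where 17.1% and 15.3% of all genes were. The latter was *Derl3*, which acts in degradation of misfolded proteins at the endoplasmic reticulum, and it was the only gene of the immune, interferon-stimulated and restriction lists to be called higher. It had 70.6 to 88.5 CPM in WT and 114 to 153 CPM in *Tlr7* KO mice (log2 fold change 0.83, SE 0.12, adjusted p = 0.00165, edgeR). It was not called after scaling by library size only (adjusted p = 0.118, edgeR). *Derl3* is also expressed in secretory epithelium, and the part of the epithelium in its level was not tested.

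Interferon-stimulated genes were described next, since *Apobec3* can respond to type I IFN. Of the 36 tested, 5 were called lower in *Tlr7* KO than in WT (median log2 fold change -0.72, from -2.43 to 0.64) and none was called higher. As 17.1% of all genes were called lower, this count does not set the list apart. The 5 were the chemokine gene *Cxcl9*, the guanylate-binding protein gene *Gbp2*, and the antigen-processing genes *Tap1*, *Psmb8* and *Psmb9*. None of them was called without WT 1 or without WT 3, while 22 of the list were without WT 2 and 11 without *Tlr7* KO 2. Over all genes 2658 of 13114 were called without WT 1 and 2510 of 12903 without WT 3, in either direction. Without WT 2 it was 6609 of 13492, and without *Tlr7* KO 2 it was 4285 of 13937. With scaling by library size only 9 were called lower (median -1.36). In that setting 4410 of 13937 genes were called, nearly all of them lower, and the median over all genes was -0.54. With no filter on low counts and in a single fit of the 11 mice 1 was called lower. There 4217 of 19054 and 4539 of 13937 genes were called in either direction. The summed level of the list was 265 to 774 CPM in WT and 213 to 544 CPM in *Tlr7* KO mice, with WT 2 at the low end of WT.

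In *Ifnar1* KO glands, 28 of the 36 interferon-stimulated genes were called lower than in WT (median log2 fold change -3.01), where 12.1% of all genes were. The list summed to 50.1 to 157 CPM. In the same comparison 15 of 15 B cell markers (median -4.23) and 10 of 14 T cell markers (-2.94) were called lower. So were 5 of 5 NK cell markers (-4.09) and 7 of 15 myeloid markers (-1.62). None of these markers was called without *Ifnar1* KO 1 or without *Ifnar1* KO 3, where 0 of 13937 genes were called in all. *Oas2*, which senses double-stranded RNA, had no counts in any *Ifnar1* KO mouse and was at least 68.8-fold lower than in WT, set against 3 counts over the group. The list's median was the same with *Oas2* at this bound. No gene of the list was called when WT 1, WT 3, *Ifnar1* KO 1 or *Ifnar1* KO 3 was left out, where 22, 88, 0 and 0 genes were called in all. Of the list, 10 were called with scaling by library size only and 17 with no filter on low counts. Over all genes these settings called 998 of 13937 and 2275 of 19034. Between the KO lines 12 of the 36 were called, all higher in *Tlr7* KO (median 2.12), among them *Ifit1*, *Isg15* and *Irf7*, where 0.768% of all genes were called higher. That number was 2 without *Ifnar1* KO 1, 3 without *Ifnar1* KO 3, 24 without *Ifnar1* KO 2 and 6 to 11 without a *Tlr7* KO mouse. It was 2 in a single fit of the 11 mice and 28 with DESeq2. Over all genes 83, 81 and 867 were called without *Ifnar1* KO 1, *Ifnar1* KO 3 and *Ifnar1* KO 2. Without a *Tlr7* KO mouse 83 to 130 were called, in a single fit 75 and with DESeq2 577. By estimated counts *Apobec3* was 2.63 in this comparison and 0.94 by the second table.

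**Figure D5:**
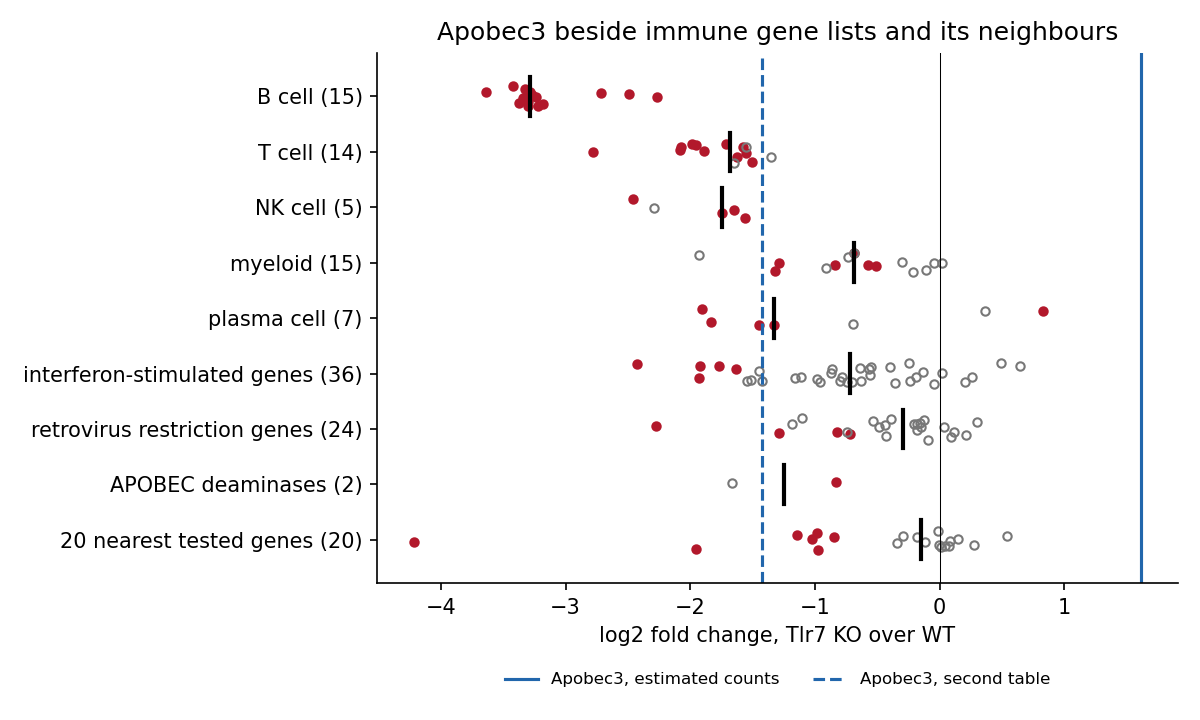
Log2 fold change in *Tlr7* KO over WT of each gene of the lists named on the y axis by estimated counts (filled points were called at an adjusted p under 0.05, open points were not), with list medians (black bars) and *Apobec3* by estimated counts (solid line) and by the second table (dashed line). The solid line at 1.62 lies above every listed gene, and the dashed line at -1.42 lies within the range of the T cell, plasma cell, myeloid, interferon-stimulated and restriction genes and above every NK cell gene.

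The list of retrovirus restriction genes was drawn up for genes that, like *Apobec3*, act against retroviruses or their DNA. Whether each member does so was not examined. Of 24 tested, 4 were called lower in *Tlr7* KO than in WT, close to the 17.1% of all genes, and none higher (median log2 fold change -0.30). With scaling by library size only, 10 were called lower. In that setting 4410 of 13937 genes were called, nearly all of them lower, and the median over all genes was -0.54. *Ifitm1*, *Ifitm2* and *Ifitm3* encode membrane proteins that hinder viral entry. *Ifitm1* was at 1.37 to 2.02 CPM in WT and 0.174 to 0.536 CPM in *Tlr7* KO mice (log2 fold change -2.28, SE 0.41, adjusted p = 0.00388, edgeR). For *Ifitm2* the log2 fold change was -0.72 (adjusted p = 0.00466, edgeR) and for *Ifitm3* -0.82 (adjusted p = 0.0345, edgeR).

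*Slfn2*, a member of the Schlafen family that regulates T cell quiescence, had a log2 fold change of -1.29 (adjusted p = 0.0242, edgeR). Its level was 12.6 to 34.9 CPM in WT and 7.95 to 15.5 CPM in *Tlr7* KO mice, so that WT 2 overlapped with the *Tlr7* KO mice. The calls of *Ifitm3* and *Slfn2* were lost without WT 1 or WT 3, and without *Tlr7* KO 1 or *Tlr7* KO 3. The call of *Ifitm3* was also lost without *Tlr7* KO 4. In *Ifnar1* KO glands 11 of the 24 were lower than in WT, where 12.1% of all genes were. In the same comparison 15 of 15 B cell, 10 of 14 T cell, 5 of 5 NK cell and 7 of 15 myeloid markers were called lower. The 11 restriction genes ran from *Mx1* (-4.10), a GTPase that blocks viral replication, to *Ifitm2* (-1.16). None of them was called when WT 1, WT 3, *Ifnar1* KO 1 or *Ifnar1* KO 3 was left out, where 22, 88, 0 and 0 genes were called in all. Of the list, 5 were called with scaling by library size only and 6 with no filter on low counts. Over all genes these settings called 998 of 13937 and 2275 of 19034. Between the KO lines 7 were higher in *Tlr7* KO, where 0.768% of all genes were. They were *Mx1*, *Mx2*, *Rsad2*, *Trim25*, *Trim30a*, *Slfn5* and *Trex1*. The number was 1 to 11 as each mouse was left out, 1 in a single fit of the 11 mice and 12 with DESeq2. Over all genes 81 to 867, 75 and 577 were called in these settings.

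None of the other deaminases tested was called higher in *Tlr7* KO glands. *Apobec1*, which edits apolipoprotein B mRNA, was at 16.9, 9.32 and 15.2 CPM in WT. It was at 4.56, 6.73 and 3.69 CPM in *Ifnar1* KO and at 7.20, 8.57, 7.14, 8.28 and 7.97 CPM in *Tlr7* KO mice. All KO mice were below all WT mice, as in 14.2% (*Tlr7* KO) and 21.1% (*Ifnar1* KO) of genes tested. The log2 fold change was -0.83 in *Tlr7* KO (SE 0.17, adjusted p = 0.00712, edgeR), and the call held without each mouse in turn. It was lost with the replicate number as a block, a fit without *Tlr7* KO 4 and *Tlr7* KO 5 (adjusted p = 0.159, edgeR). In *Ifnar1* KO the log2 fold change was -1.50 (SE 0.29, adjusted p = 0.0254, edgeR). That call was lost when WT 1, WT 3, *Ifnar1* KO 1 or *Ifnar1* KO 3 was left out, where 22, 88, 0 and 0 genes were called in all. The second table gave -1.02 and -2.12, the same signs.

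*Apobec2*, a muscle-enriched member, was not called in *Tlr7* KO (-1.66, SE 1.17, adjusted p = 0.31, edgeR) or *Ifnar1* KO (-3.96, SE 1.37, adjusted p = 0.0855, edgeR; 0.007 with DESeq2). Its counts were highest in WT 1 (111), *Tlr7* KO 4 (50) and WT 2 (34). The same 3 mice had the highest summed level of 5 skeletal muscle genes, 351, 248 and 253 CPM, against at most 9.87 CPM in each other mouse. The part of muscle in its level was not tested. The level of *Apobec4* is not given here.

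Genes that edit RNA or repair DNA after deamination were called in both directions. Of 5 RNA editing genes, *Adarb1* (0.69), which edits adenosines, and *Rbm47* (0.58), a cofactor of APOBEC1, were called higher in *Tlr7* KO, and none lower. Of 12 genes that repair uracil or mismatches in DNA, *Lig3* (0.42) was called higher, and *Mbd4* (-1.15) and *Msh6* (-0.59) lower. These 5 of 17 calls compare with 32.5% over all genes. With scaling by library size only, 0 of the 17 genes were called higher and 3 lower, where 4410 of 13937 genes were called, nearly all lower.

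None of the near neighbours of *Apobec3* was called higher in *Tlr7* KO glands with all mice. Of the 10 nearest tested genes on each side, 7 were called lower and none higher than in WT, where 17.1% and 15.3% of all genes were. Without WT 2, 7 neighbours were lower and 3 higher, where 6609 of 13492 genes were called in either direction. With all mice, those called lower on the left were *Cbx6* (-0.99), *Gm16576* (-1.03) and *Sun2* (-0.85). On the right they were *Cbx7* (-1.14), *Mgat3* (-0.98), *Cacna1i* (-4.22) and *Grap2* (-1.95). *Cbx7*, a Polycomb protein gene whose last exon overlaps *Apobec3*, was at 8.14 to 9.51 CPM in WT and 3.23 to 4.48 CPM in *Tlr7* KO mice (SE 0.13, adjusted p = 0.000668, edgeR). *Grap2* encodes an adaptor of T cell receptor signaling and *Cacna1i* a calcium channel. The call of *Gm16576* was lost without WT 1, WT 3, *Tlr7* KO 3 or *Tlr7* KO 4. *Dnal4* (-0.18), *Nptxr* (-0.01), *Pdgfb* (-0.30) and *Syngr1* (0.54), also among the nearest 3 on a side, were not called. The second table gave 7 lower and none higher among the 19 of these genes that it tested, where 16.4% of all genes were lower.

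The genes whose pattern over the 11 mice was most like that of *Apobec3* were not the same in the 2 tables. Pearson r of log2 CPM was computed for genes that averaged 5 CPM or more, and all values of a mouse share its library. By estimated counts, among 7502 genes, the most alike were *Tmem51* (r = 0.96), *Rpa1* (0.94), *Id2* (0.92), *Gm26880* (0.92), *Ext1* (0.89), *Irf2bpl* (0.89), *St6galnac2* (0.89) and *Pea15a* (0.89). *Rpa1* encodes a subunit of the single-stranded DNA-binding complex RPA, *Id2* a transcriptional inhibitor and *Ext1* a glycosyltransferase of heparan sulfate synthesis. The most unlike were *Gm12883* (r = -0.95), *Stxbp6* (-0.93), *Ildr1* (-0.90) and *Rrp7a* (-0.90). Of the 8 most alike, 5 were retained with Spearman's rho and 2 after group means were removed.

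By the second table, among 7831 genes, the most alike were *Psmb10*, *Cyba*, *Psme2*, *Tmsb4x*, *Tmem173*, *Fxyd5*, *C1s* and *Prr13* (r = 0.97 to 0.98), and 0 of the 8 were shared with the estimated counts. *Psmb10* and *Psme2* encode parts of the immunoproteasome and its activator, *Cyba* a subunit of the phagocyte NADPH oxidase and *Tmem173* the DNA-sensing adaptor STING. The lists differed likewise. The median r with *Apobec3* was 0.07 for B cell markers, 0.26 for T cell markers and 0.66 for interferon-stimulated genes by estimated counts. By the second table it was 0.88, 0.88 and 0.85. These r values pool the 3 groups and so include the differences between them. After group means were removed, *Apobec3* by estimated counts had an r of 0.69 with *Psmb10*, 0.77 with *Cyba* and 0.69 with *Psme2*, against 0.30, 0.37 and 0.27 before. *Apobec3* lay furthest from its group mean in WT 2 (log2 CPM 3.13, WT mean 4.19). How far these r values rest on this mouse was not tested.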

How the data were processed

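Lacrimal gland RNA from 3 WT, 5 *Tlr7* KO and 3 *Ifnar1* KO male NOD mice was sequenced on a HiSeq instrument. The authors made the estimated counts by quantifying reads with salmon and summing transcripts to genes with tximport. The first deposited table is named as normalized but was used as counts, since its values are whole numbers whose totals differ between libraries. The second deposited table holds counts for 39017 genes, and the submitters' processing notes name mm10 and HISAT2 2.1.0. One of its columns of per-mouse values, which has no sample, was not used.

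R 4.3.3, edgeR 4.0.16, limma 3.58.1 and DESeq2 1.42.0 were used. Genes with a summed WT count of at least 30 were tested with edgeR's quasi-likelihood test and TMM scaling, in a separate fit for each pair of groups, and adjusted by the Benjamini-Hochberg method over all genes tested. Tests are two-sided. SE are of the log2 fold change, and log2 CPM used a prior count of 2. Nothing states that mice came from separate litters. P-values therefore measure only the spread between these mice. Errors are SD between mice unless given as SE. The scripts were tested on simulated data. The members, lists and tests were chosen with earlier results of these data known.

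Genes were named by a rule: *Apobec3*, APOBEC deaminases (1 item is not reported here), the 4 restriction genes with the largest change among those called in *Tlr7* KO over WT, immune-list genes called higher there, the nearest 3 tested genes on each side with those called among the nearest 10, the 8 genes most like and 4 most unlike *Apobec3*, *Tlr7* and *Ifnar1*. Any other gene was chosen after its values were seen. Alternatives were DESeq2, RLE size factors, library size only, filterByExpr, no filter, all 11 mice in a single fit, replicate number as a block, each mouse left out and the second table. The block left out *Tlr7* KO 4 and *Tlr7* KO 5, whose replicate numbers no other group has. The second table with library size only or with each mouse left out, and levels per mouse with library size only, were added after seeing the data.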

Additional observations from a re-analysis of the deposited data

Results flagged for a closer look

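By estimated counts every *Tlr7* KO mouse was above the WT mean of *Apobec3* and every *Ifnar1* KO mouse below it, with a log2 fold change of 2.63 between the KO lines, and this difference was not tested because the gene was chosen on these mice. In the second table all mice of both KO lines except *Tlr7* KO 2 were below every WT mouse.

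In the group of 5 *Tlr7* KO mice, 1 mouse stood far from the others in 4 of 58 sets of values checked, where chance gives about 5%. *Apobec2* was at 2.06 CPM in *Tlr7* KO 4, and the muscle genes summed to 248 CPM in the same mouse. *Gm12883* was at 46.9 CPM in *Tlr7* KO 5, against 30.7 to 32.8 CPM in the others. The T cell markers summed to 43.5 CPM in *Tlr7* KO 2.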

How the results depend on the processing

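The sign of *Apobec3* in *Tlr7* KO over WT turned with the table: it was -1.42 by the second table and -1.91 there with library size only. By estimated counts it was 1.02 with library size only, where *Tlr7* KO 5 overlapped with WT, and 1.59 to 1.95 with DESeq2, RLE, both filters, a single fit and the block. Between the KO lines the second table gave 0.94, and 0.75 with library size only. For *Ifnar1* KO over WT it gave -2.36, and -2.67 with library size only. With each mouse left out, *Apobec3* ran from 1.25 to 1.91 by estimated counts and -1.77 to -1.04 by the second table in *Tlr7* KO over WT, from 2.48 to 2.95 and 0.63 to 1.48 between the KO lines, and from -1.40 to -0.74 and -2.88 to -1.97 in *Ifnar1* KO over WT. The cause of the difference between tables was not tested.

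The number of genes called in *Tlr7* KO over WT was 4528, against 17 with the replicate block and 2510 to 6609 with a mouse left out. Fits with the block also left out *Tlr7* KO 4 and *Tlr7* KO 5, whose replicate numbers no other group has. The part of blocking and that of fewer mice in these values were not told apart. In *Ifnar1* KO over WT it was 2648, against 998 with library size only, 5097 in a single fit of the 11 mice and 0 with the replicate block (3875 at an unadjusted p under 0.05, edgeR). With a mouse left out the number was 0 to 4718, and it was 0 (4387 and 3801 unadjusted, edgeR) without *Ifnar1* KO 1 or *Ifnar1* KO 3. DESeq2 called 3356 with all mice. Between the KO lines 211 were called, 577 with DESeq2, 75 in a single fit, 598 with the block and 81 to 867 with a mouse left out. Correlations by replicate number ran from -0.44 to 0.030 between WT and the KO lines, so the numbers did not pair those mice. Between the KO lines they were 0.064, 0.34 and 0.26, and whether the numbers pair mice there was not tested. *Apobec3* was 1.95, -0.94 and 2.88 with the block. With the block, 0 genes of the immune cell, interferon-stimulated, restriction, deaminase, editing and repair lists and 0 neighbours were called in *Tlr7* KO over WT, and 0 interferon-stimulated or restriction genes in *Ifnar1* KO over WT, against 35 and 12 between the KO lines.

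With library size only, the median over all genes in *Tlr7* KO over WT was -0.54 (log2) in place of -0.04, and the share of called genes that were higher went from 47.2% to 2.65%. In *Ifnar1* KO over WT that share went from 36.4% to 4.91%. In *Tlr7* KO over WT the 8 most alike genes turned sign with library size only: *Tmem51* -0.27, *Rpa1* -0.20, *Id2* -0.090, *Gm26880* -0.21, *Ext1* -0.038, *Irf2bpl* -0.18, *St6galnac2* -0.36 and *Pea15a* -0.22. *Gm26880* was -1.54 by the second table. *Nptxr* was 0.0027 by the second table and -0.22 to 0.16 with a mouse left out, and *St6galnac2* was -0.022 to 0.47. Second-table counts of *Apobec3* of 8 to 27 in KO mice limit their precision.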
